A study of Mus musculus with 22 samples.

Results

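The collagen and laminin genes are those whose symbol names a collagen chain or an alpha, beta or gamma chain of laminin, 53 of the 17306 genes. They comprised 11 fibrillar collagens, 6 type IV collagens, 25 other collagens and 11 laminins, and the rule used names only, not values. RNA was sequenced from the lumbar spinal cord (L4-L6; by the methods, quadrants on the side of the injury) of 22 wildtype C57BL6J mice aged 12 to 14 weeks. Every mouse had 1 mg of sodium iodoacetate (MIA), which damages cartilage, placed in the knee joint, so no group lacks the joint injury. SAFit2, an inhibitor of the stress-axis protein FKBP51, was given at 100 mg/kg in a slow-release phospholipid gel (VPG), and Vehicle mice had the gel alone. Early SAFit2 (n = 5) and Early Vehicle mice (n = 6) had gel on days -3 and 4 by the methods, where a label gives days 3 and 4. Late SAFit2 (n = 5) and Late Vehicle mice (n = 6) had it on days 20 and 27, and cord was collected at day 30. The titles of the Early SAFit2 mice name SAFit1, and their treatment label, SAFit2, was followed. The labels give Early and Late as batches, so the time of the gel and the batch cannot be told apart.

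Collagens are helical proteins of the extracellular matrix, each made of alpha chains from separate genes. Fibrillar collagens (types I, II, III, V, XI, XXIV and XXVII) build the fibres of meninges, nerve sheaths and cartilage. Type IV collagen and the laminins, which are trimers of an alpha, a beta and a gamma chain, form the networks of basement membranes. In the central nervous system these sheets lie around vessels and under the pia, and in nerve roots each Schwann cell has its own. The FACITs (fibril-associated collagens such as types IX, XII and XVI) coat fibrils, and transmembrane collagens sit in the membrane of neurons and other cells.

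The libraries held 11352989 to 24433349 reads on genes, and no 2 libraries shared the same values. Levels are log2 CPM, the log2 of reads on a gene scaled by the library total. Summed markers of neurons (12.22 to 12.89 log2 CPM) and oligodendrocytes (13.09 to 14.57) were high in every library. The 10 RNAs of a list of transcripts kept in the nucleus (Neat1, Malat1, Meg3 and others, listed after values were seen) summed to 10.08 to 12.10 log2 CPM in Early mice and to 8.32 to 9.21 in Late mice, and 10 genes with retained introns to 9.28 to 10.47 and 8.40 to 8.88. Late SAFit2 replicate 2 stood apart. Its 10 markers of Schwann cells and nerve roots summed to 6.13 log2 CPM, against 8.70 to 11.64 in the other libraries, the markers Dhh and Pmp2 were at 0 reads in it, and 20 of the 53 collagen and laminin genes had their lowest level of all libraries there. Late SAFit2 replicate 1 came next. Its Schwann cell and nerve root markers summed to 8.70 and those of fibroblasts and meninges to 6.81 (5.43 in replicate 2). It was the lowest of all libraries for 13 of the 53 genes. Some results that include Late SAFit2 replicate 2 are also given without it.

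The sequences below are the 250 bases before the RefSeq start (GRCm38.p6) of the genes on which the results turn: Col1a2, the most abundant fibrillar chain, Col11a2, the fibrillar chain that was lower after late SAFit2, and Col7a1, Col11a1, Col24a1 and Col27a1, which were lower in all Late than in all Early mice. Each is written 5′ to 3′ on the strand of the gene, with 3 promoter motifs in capitals, read on either strand. These are the GC box GGGCGG, the box CCAAT that the factor NF-Y binds, and the form TATAAA of the box near the start of transcription.
Col1a2 (chr6:4505368-4505617, + strand): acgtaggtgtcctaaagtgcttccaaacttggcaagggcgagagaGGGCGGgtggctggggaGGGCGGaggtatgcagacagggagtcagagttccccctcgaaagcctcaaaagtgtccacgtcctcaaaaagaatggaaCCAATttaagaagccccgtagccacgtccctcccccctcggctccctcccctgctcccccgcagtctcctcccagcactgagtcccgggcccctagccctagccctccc
Col11a2 (chr17:34038888-34039137, + strand): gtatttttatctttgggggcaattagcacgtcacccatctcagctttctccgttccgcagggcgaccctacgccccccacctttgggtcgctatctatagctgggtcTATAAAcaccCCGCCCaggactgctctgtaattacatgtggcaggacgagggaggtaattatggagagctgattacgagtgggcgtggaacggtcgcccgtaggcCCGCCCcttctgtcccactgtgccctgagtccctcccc
Col7a1 (chr9:108953336-108953585, + strand): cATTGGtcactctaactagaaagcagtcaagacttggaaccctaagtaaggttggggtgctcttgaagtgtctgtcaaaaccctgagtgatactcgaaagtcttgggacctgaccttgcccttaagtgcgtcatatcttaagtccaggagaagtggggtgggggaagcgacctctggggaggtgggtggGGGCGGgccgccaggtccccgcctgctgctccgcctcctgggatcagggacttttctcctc
Col11a1 (chr3:114030290-114030539, + strand): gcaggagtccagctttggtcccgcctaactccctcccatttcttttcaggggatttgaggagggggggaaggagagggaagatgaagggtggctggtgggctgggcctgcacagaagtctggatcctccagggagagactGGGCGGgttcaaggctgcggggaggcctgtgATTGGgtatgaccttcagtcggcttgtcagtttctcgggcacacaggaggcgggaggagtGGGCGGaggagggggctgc
Col24a1 (chr3:145292222-145292471, + strand): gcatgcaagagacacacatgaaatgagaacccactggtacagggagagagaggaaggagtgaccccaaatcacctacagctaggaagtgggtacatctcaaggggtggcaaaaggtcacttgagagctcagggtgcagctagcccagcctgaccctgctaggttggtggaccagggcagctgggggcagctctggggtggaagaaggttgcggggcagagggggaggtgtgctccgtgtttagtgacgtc
Col27a1 (chr4:63215162-63215411, + strand): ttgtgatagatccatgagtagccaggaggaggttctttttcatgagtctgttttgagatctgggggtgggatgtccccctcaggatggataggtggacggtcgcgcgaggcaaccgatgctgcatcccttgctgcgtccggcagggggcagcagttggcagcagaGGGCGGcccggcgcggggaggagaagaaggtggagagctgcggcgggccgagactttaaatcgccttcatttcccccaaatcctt
All 6 windows lie on the plus strand. A match is a description of these letters only. Among the 38 members with a promoter in the RefSeq table, GGGCGG was in 23 (60.5%), against 32.9% of 27025 promoters of the same length. CCAAT was in 12 members (31.6%) and 34.5% of all, and TATAAA in 3 members (7.89%) and 13.0% of all. The median GC content of the windows was 60% over the members and 52.0% over all. Of the 4 genes lower in Late mice, Col24a1 had none of the 3 motifs in its window, Col27a1 had GGGCGG alone, and Col7a1 and Col11a1 had GGGCGG and CCAAT. Col4a1 and Col4a2, the type IV chains of most basement membranes, start back to back on opposite strands. In the annotation (GENCODE M21, GRCm38) their 5′ ends share 22 bases at chr8:11312805-11312826, which hold GGGCGG and are shown because the pair is described together later.
Col4a2 (+ strand): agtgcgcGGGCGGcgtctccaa
Col4a1 (- strand): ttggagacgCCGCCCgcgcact

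Levels can be compared between genes only per length of transcript. On the scale of log2 CPM per kb of the longest transcript, the 53 genes spanned -4.65 (Col6a5) to 3.57 (Col1a2) as the mean of 22 mice. Col1a2 (3.57), Col3a1 (2.21) and Col1a1 (2.12), the chains of the type I and III collagens of connective tissue, led the fibrillar class, whose median was 0.06. Col4a1 (2.63) and Col4a2 (2.21) stood far above the other type IV chains, the next being Col4a5 at -0.66, and Col4a3 and Col4a4, known from kidney and lung, were at -4.13 and -4.41. Lamc1 (2.61), Lamb2 (2.47) and Lamb1 (2.34) led the laminins. The alpha chains lay lower, Lama4 of vessels at 0.82 and Lama2 of muscle and Schwann cells at 0.76, while Lamb3 of epithelia was lowest at -4.20. Among the other collagens the transmembrane chains Col23a1 (2.57) and Col25a1 (2.41) were highest per kb. The members had 4 to 119 exons in their longest transcript and a median transcript GC content of 54.5%, against 49.7% over the 16213 genes tested with a value.

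**Figure D1:**
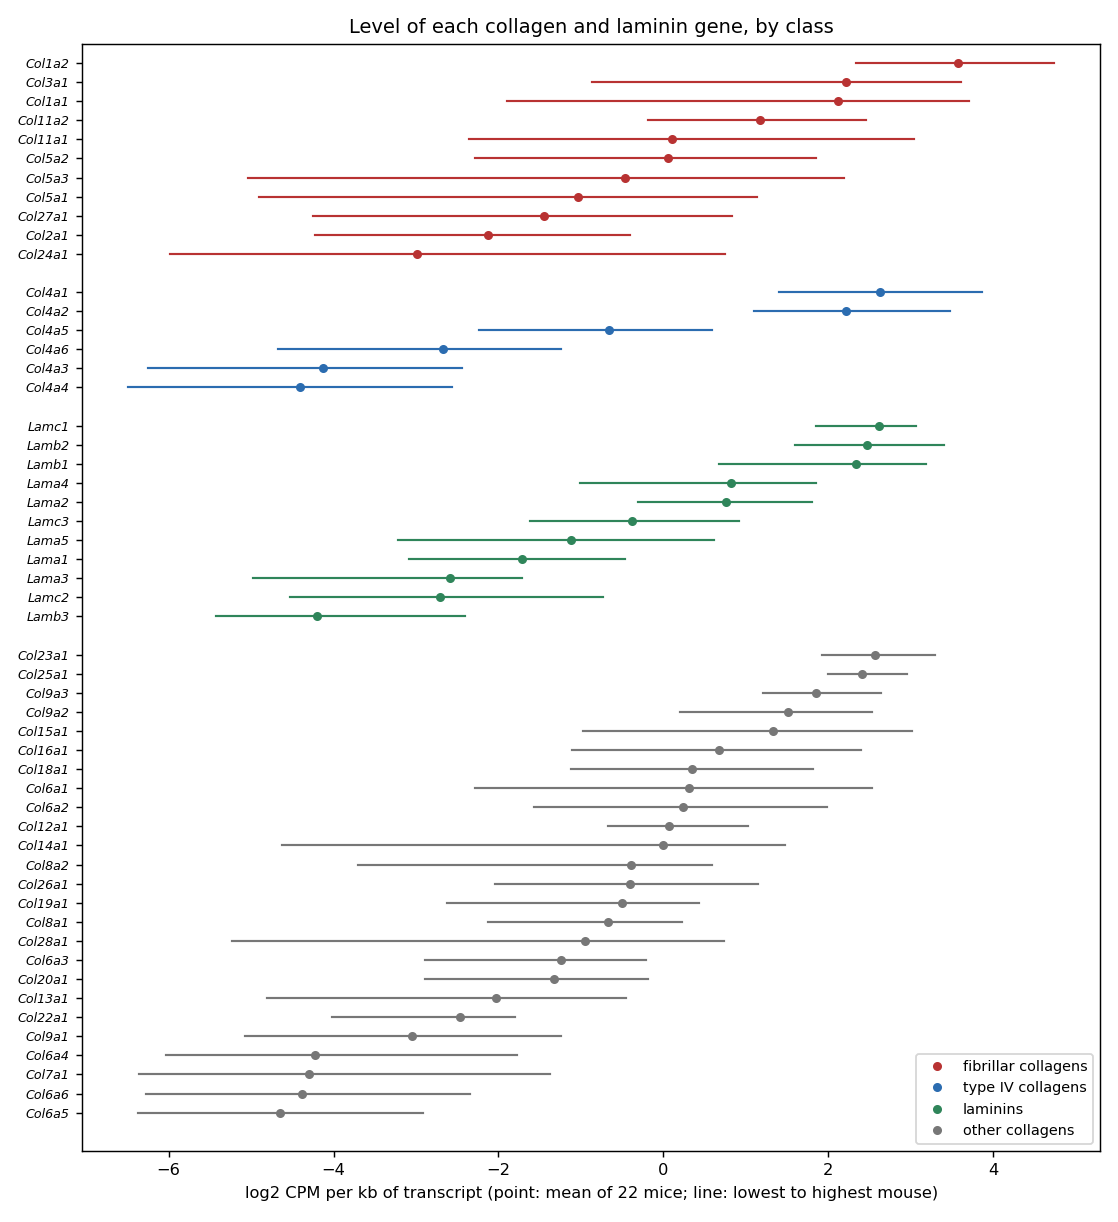
Level of each of the 53 genes in log2 CPM per kb of its longest transcript, by class (x axis), with the mean of 22 mice as a point and the lowest to highest mouse as a line. Col1a2 leads at 3.57 and Col6a5 is lowest at -4.65, and Col24a1, Col5a3 and Col5a1 have some of the longest lines.

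The levels also differed in how far they ranged among mice. Col23a1 ranged from 4.43 to 5.79 log2 CPM and Col25a1, a neuronal chain, from 4.74 to 5.70 over all 22 mice. Lamc1 ranged from 4.78 to 6.0. Col1a1 ranged from 0.67 to 6.28 and Col24a1 from the value of 0 reads to 3.59.

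The clearest difference among the collagens was between Early and Late mice, and for Col11a1, Col24a1, Col27a1 and Col7a1, and no other member, every Late mouse lay below every Early mouse. Col11a1, the main chain of cartilage type XI collagen, which sets the width of fibrils, stood at 5.97, 4.11, 4.14, 4.19, 5.98 and 3.83 log2 CPM in the 6 Early Vehicle mice and at 1.69, 0.58, 0.84, 1.35, 0.70 and 2.65 in the 6 Late Vehicle mice. In SAFit2 mice it was 4.11, 5.29, 3.48, 4.48 and 4.43 (Early) against 1.5, 1.51, 1.46, 1.49 and 3.02 (Late). The lowest Early mouse lay above the highest Late mouse in either treatment. The difference of Late and Early Vehicle means was -3.40 ± 0.40 on the log2 scale (SE, 10.6-fold lower, limma adjusted p = 3.8e-06), and that of the SAFit2 means -2.56 ± 0.44 (5.90-fold lower, limma adjusted p = 0.0004).

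Col24a1, a fibrillar chain known from developing bone, had 46 to 244 reads in Early Vehicle, 14 to 173 in Early SAFit2, 0 to 12 in Late Vehicle and 0 to 4 in Late SAFit2 mice. Its level went from 2.16 ± 1.10 (SD, n = 6) to -1.98 ± 1.01 log2 CPM (SD, n = 6) between the vehicle groups, a difference of -4.14 ± 0.57 (SE, limma, adjusted p = 3.1e-05), and from 1.5 ± 1.23 to -2.38 ± 0.90 (SD, n = 5 each) between the SAFit2 groups, -3.87 ± 0.62 (SE, limma, adjusted p = 0.0002). Its reads summed to 22 over the Late Vehicle and 7 over the Late SAFit2 mice, so the size of these differences is imprecise. Col27a1, the fibrillar chain of growth cartilage, was at 2.97 ± 0.63 in Early Vehicle and 0.13 ± 1.00 in Late Vehicle mice (SD, n = 6 each), and at 2.67 ± 0.68 and 0.13 ± 0.36 in the SAFit2 groups (SD, n = 5 each). Its differences were -2.83 ± 0.38 and -2.54 ± 0.42 (SE, limma, adjusted p = 3e-05 and 0.0003). Col7a1, whose product anchors basement membranes to the tissue below, had 205 reads over the 6 Early Vehicle mice and 4 over the 6 Late Vehicle mice, and 123 and 5 over the 5 SAFit2 mice of each timing. With so few reads its fitted difference of -3.55 ± 0.45 (vehicle groups, limma adjusted p = 9.8e-06) moved with the prior count, and limma voom on the reads gave -4.83 ± 0.77. Exact two-sided permutation gave each of the 4 genes the smallest p that the splits allow. It was 0.0022 over 924 splits of the vehicle mice and 0.0079 over 252 splits of the SAFit2 mice. The 4 genes were singled out for groups that do not overlap, which fixes this p, so it adds no support.

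**Figure D2:**
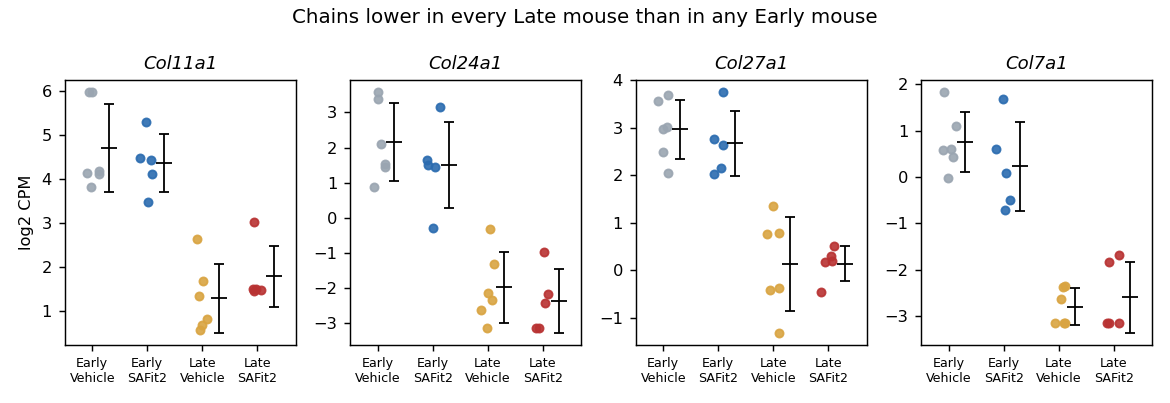
Log2 CPM (y axis, a scale of its own per gene) of Col11a1, Col24a1, Col27a1 and Col7a1 in the 4 groups, 1 point per mouse, with bars for the mean and SD. In each gene the Late points lie below the Early points. For Col11a1 they are 3.02 and lower against 3.48 and higher, and for Col24a1 -0.32 and lower against -0.29 and higher.

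Across the 53 genes, 8 were called lower in Late than in Early Vehicle mice and 0 higher (limma, adjusted p under 0.05 and 1.2-fold), while 9.11% of the 16765 genes tested were called and 5.82% were called lower. Besides the 4 genes above these were Col16a1, a FACIT (-1.17 ± 0.25, SE), and Col5a2, a partner of type I collagen (-1.33 ± 0.38). The others were Col6a1 of beaded filaments (-1.45 ± 0.46, limma adjusted p = 0.046) and Col26a1 (-1.16 ± 0.36, limma adjusted p = 0.044). Neither Col6a1 nor Col26a1 was called without a variance trend, with quantile normalization or with a block for replicate number (limma adjusted p of 0.051 to 0.086). The groups did not overlap for 7 members (13.2%; all lower in Late mice), against 4.92% of all genes tested. Between Late and Early SAFit2 mice, a comparison added after values were seen, 21 members were called, all lower, where 20.5% of all genes were called and 11.3% called lower, and 14 members (26.4%) did not overlap, against 14.5% of all genes. All 8 members called between the vehicle groups were among these 21. The class medians stayed below 0 when each library was centred on its median, which turned the split of calls over all genes from 552 higher and 975 lower to 1198 higher and 816 lower between vehicle groups, and from 1543 and 1894 to 2590 and 1321 between SAFit2 groups. The median difference over all genes between the SAFit2 groups went from -0.07 to 0.06 on the log2 scale with this centring, and 19 members were then called, all lower.

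Of the 11 fibrillar chains, all 11 had a mean below that of Early mice in both treatments, 4 were called between vehicle groups and 8 between SAFit2 groups, with median differences of -1.23 and -1.53. Of the 6 type IV chains 0 and 3 were called (median -0.41 and -0.86), and of the 11 laminins 0 and 2 (median -0.26 and -0.77). Of the 25 other collagens 4 and 8 were called (median -0.77 and -0.84). Over all genes tested the medians were 0.01 and -0.07. Col5a3, a minor chain of type V collagen, had 2.25 to 4.81 log2 CPM in Early Vehicle and 0.80 to 2.10 in Late Vehicle mice. Its groups were apart in both treatments, and it was called between the SAFit2 groups alone (-2.71 ± 0.58, SE, limma adjusted p = 0.0025). Between vehicle groups its limma adjusted p was 0.053. With a library left out, its difference between SAFit2 groups ranged from -3.19 to -1.96. Lama5, the alpha chain of mature vessel and epithelial laminins, was at 3.01 ± 0.53 in Early SAFit2 and 1.26 ± 0.77 log2 CPM in Late SAFit2 mice (SD, n = 5 each), -1.76 ± 0.35 (SE, limma, adjusted p = 0.0016). Without Late SAFit2 replicate 2, 17 members were called between the SAFit2 groups, and the medians there were -1.44 for fibrillar chains, -0.65 for type IV chains, -0.34 for laminins and -0.71 for other collagens. With the correction for transcript GC content and length they were -1.04, -0.37, -0.33 and -0.39.

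Other RNAs moved with the timing. The RNAs kept in the nucleus were called lower for 10 of 10 genes between vehicle groups and 9 of 10 between SAFit2 groups. Their median differences were -3.41 and -3.24. The genes with retained introns were called lower likewise for 10 and 9 of 10 (median -1.66 and -1.21). Over all genes 5.82% and 11.3% were called lower. Both lists were made with values in view, so these counts, and the relation that follows, are descriptions. Within the 11 Early mice, as deviations from the group means, the mean of Col7a1, Col11a1, Col24a1 and Col27a1 followed the sum of the nuclear RNAs, with r = 0.91 and rho = 0.92 (permutation within groups, adjusted p = 0.0016 and 0.0012 over 18 relations). Without the 2 Early mice farthest from the median sum r was 0.92. Within the 11 Late mice r was 0.26 and rho 0.34 (permutation, adjusted p = 0.54 and 0.41), at levels where these genes have few reads. A pooled value is not given, since Early and Late mice form separate clusters. Markers of fibroblasts and meninges had values below 0 in 10 of 10 genes between vehicle groups and in 7 of 10 between SAFit2 groups (median -0.83 and -0.34, 0 called by limma in both, 6 and 1 at a nominal p under 0.05). Those of Schwann cells and nerve roots had medians of -0.44 and -1.46 (0 and 1 called, 2 and 6 at a nominal p under 0.05). Late SAFit2 replicate 2 was the lowest of all libraries for 9 of these 10 markers. The Schwann cell sums were 8.70, 6.13, 10.27, 10.70 and 11.64 log2 CPM in Late SAFit2 replicates 1 to 5, and 10.26 to 11.59 in Early SAFit2 mice. Other markers were higher in Late mice. Astrocyte markers were called higher for 2 of 6 genes between vehicle groups and 4 of 6 between SAFit2 groups (median 0.31 and 0.57). Between SAFit2 groups 4 of 6 microglial markers (median 0.58), 4 of 6 ependymal markers (median 1.66) and 2 of 6 skeletal muscle markers (median 1.67) were called higher, against 0 of 6 of each between vehicle groups (limma, 2, 1 and 0 at a nominal p under 0.05). The part of these RNAs and cells in the difference between Early and Late mice was not tested. The fibrillar chains of most RNA, Col1a2, Col3a1 and Col1a1, were not called. Col3a1 differed by -0.87 ± 0.47 between vehicle groups (SE, limma adjusted p = 0.26, exact permutation p = 0.013) and by -0.61 ± 0.52 between SAFit2 groups (0.05 without Late SAFit2 replicate 2), and Col1a1 by -0.49 ± 0.55 and -1.05 ± 0.60 (limma, adjusted p = 0.63 and 0.21). Col1a2 was at 6.13 ± 0.77 in Early and 5.99 ± 0.44 log2 CPM in Late Vehicle mice (SD, n = 6 each), a difference of -0.14 ± 0.30 (SE, limma, adjusted p = 0.82).

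Whether SAFit2 changed the collagen and laminin genes was asked within each timing. After late SAFit2, 2 of the 53 genes were called, Col11a2 and Col9a3, both lower (3.77% of members), against 12.1% of all genes tested, with 6.72% called lower. The split over all genes was 894 higher and 1127 lower, and 1139 higher and 924 lower when each library was centred on its median, with 1 member then called. Col11a2, a chain of type XI collagen, was at 3.25, 3.34, 2.40, 2.52 and 2.55 log2 CPM in the 5 Late SAFit2 mice and at 4.29, 3.12, 4.64, 4.30, 4.15 and 2.49 in the 6 Late Vehicle mice. The SAFit2 mice were lower than 4 of the vehicle mice and overlapped with the other 2. The difference was -1.02 ± 0.30 (SE, 2.03-fold lower, limma adjusted p = 0.038, exact two-sided permutation over 462 splits, p = 0.054). Col9a3, a chain of the FACIT type IX collagen of cartilage, was at 2.94, 3.25, 2.92, 2.89 and 2.82 in Late SAFit2 and 3.78, 3.16, 3.94, 3.54, 3.74 and 3.01 in Late Vehicle mice. All but replicate 2 of the SAFit2 mice lay below every vehicle mouse. The difference was -0.57 ± 0.18 (SE, 1.48-fold lower, limma adjusted p = 0.047, exact permutation p = 0.019). Without Late SAFit2 replicate 2, 0 members were called by limma and 8 had a nominal p under 0.05. Col11a2 was then -1.15 ± 0.32 (limma, adjusted p = 0.057) and Col9a3 -0.64 ± 0.20 (limma, adjusted p = 0.062).

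At a nominal p under 0.05, 10 members passed (18.9%), all lower, where 34.5% of all genes passed, 3182 of 16765 as lower. Beside the 2 called genes these included Lama5 (-0.98 ± 0.34, SE, limma adjusted p = 0.053), Col8a2, a chain of a network-forming collagen of cornea and vessels, (-1.33 ± 0.46, adjusted p = 0.055) and Lama1 (-0.90 ± 0.33, adjusted p = 0.066). Without Late SAFit2 replicate 2 Col8a2 differed by -0.72 ± 0.35 (limma, adjusted p = 0.17). Lamb3, a chain of epithelial laminin, had 0 reads in all 5 Late SAFit2 mice and 38 over the 6 Late Vehicle mice (0 to 12 each). The fitted difference was -1.74 ± 0.63 (SE, 3.34-fold lower, limma adjusted p = 0.061). With 3 reads set as the floor over the Late SAFit2 group, the pooled reads were 8.13-fold lower, which leaves out the spread between mice. Col4a3 had 11 reads over the Late SAFit2 mice, 10 of them in replicate 2, and 48 over the Late Vehicle mice (-1.33 ± 0.51, SE, limma adjusted p = 0.073). For 0 of the 53 genes were the Late groups free of overlap, against 1.71% of all genes. Of the 53 differences 41 were below 0 (77.4%, against 53.9% of all genes). Class medians were -0.46 for fibrillar collagens, -0.41 for type IV collagens, -0.50 for laminins and -0.29 for other collagens, against -0.05 over all genes. After each library was corrected for transcript GC content and length, 0 members and 0 of 16213 genes were called by limma (2527 genes had a nominal p under 0.05), and the class medians were -0.21, 0.10, -0.06 and 0.12, so that those of type IV and other collagens turned above 0. Without Late SAFit2 replicate 2 they were -0.11, -0.26, -0.35 and -0.14. Markers of skeletal muscle also moved, with 1 of 6 called higher after late SAFit2, 4 of 6 at a nominal p under 0.05 and a median of 1.88. Of the vessel markers 2 of 12 endothelial and 1 of 12 mural genes were called lower (median -0.14 and -0.21), and 1 of 6 ependymal genes was called lower with all 6 below 0 (median -0.67). The part of these cells in the differences was not tested.

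**Figure D3:**
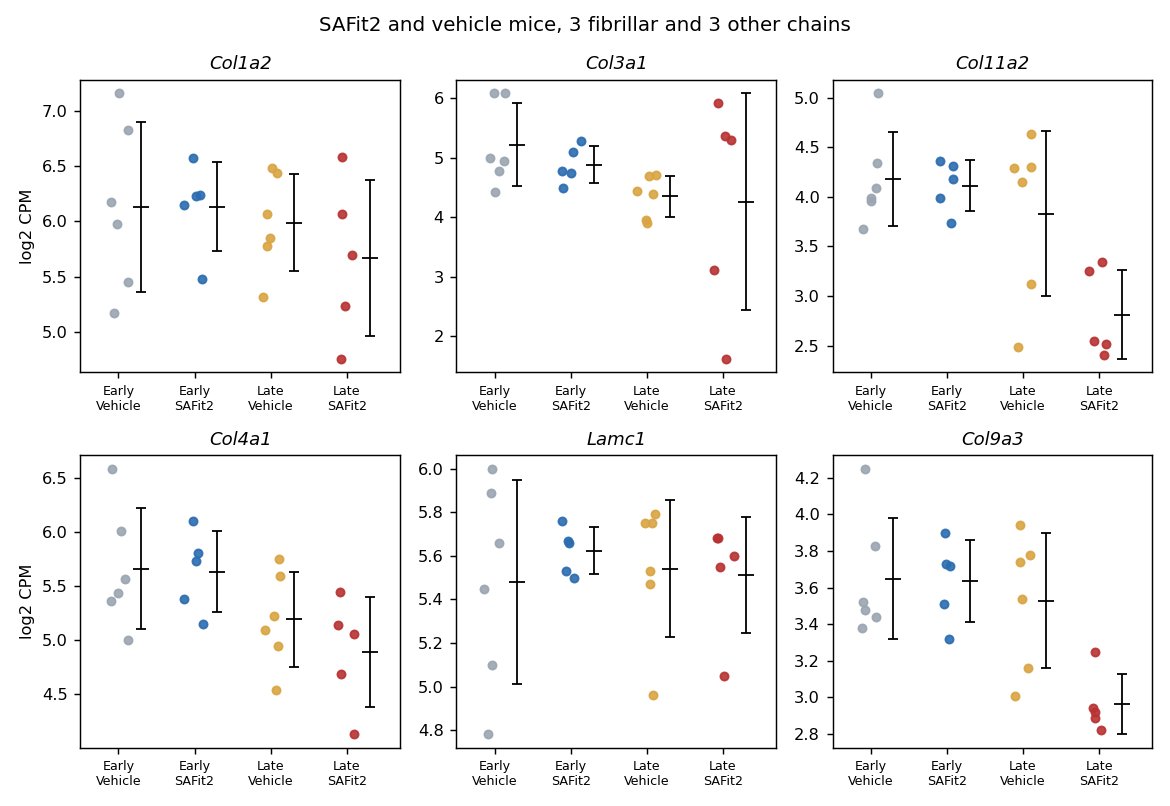
Log2 CPM (y axis, a scale of its own per gene) of Col1a2, Col3a1, Col11a2, Col4a1, Lamc1 and Col9a3 in the 4 groups, 1 point per mouse, with bars for the mean and SD. For Col11a2 the Late SAFit2 mean is 2.81 and the Late Vehicle mean 3.83, and for Col9a3 2.96 and 3.53, with overlap and with differences of -0.27 and -0.02 after the GC correction, while Lamc1 has means of 5.51 and 5.54.

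The differences after late SAFit2 went with transcript GC content. Over the 53 members r was -0.41 and rho -0.45, and over the 16213 genes with a value r was -0.61 and rho -0.68, across genes of the same libraries. Of the 9 members of at least 60% GC, 8 were below 0, with a median of -0.59 (all genes of that range, -0.64). Of the 10 members under 50% GC, 5 were below 0 (median -0.13; all genes, 0.20). Col11a2 has the highest GC content of the members, 62.9%, Col9a3 has 59.2%, and Col25a1, at 45.9%, was 0.23 ± 0.17 higher (SE, limma, adjusted p = 0.33). With the correction Col11a2 differed by -0.27 ± 0.17 and Col9a3 by -0.02 ± 0.14 (limma, adjusted p = 0.47 and 0.98). A treatment effect that itself ran with GC content would be removed along with it.

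**Figure D4:**
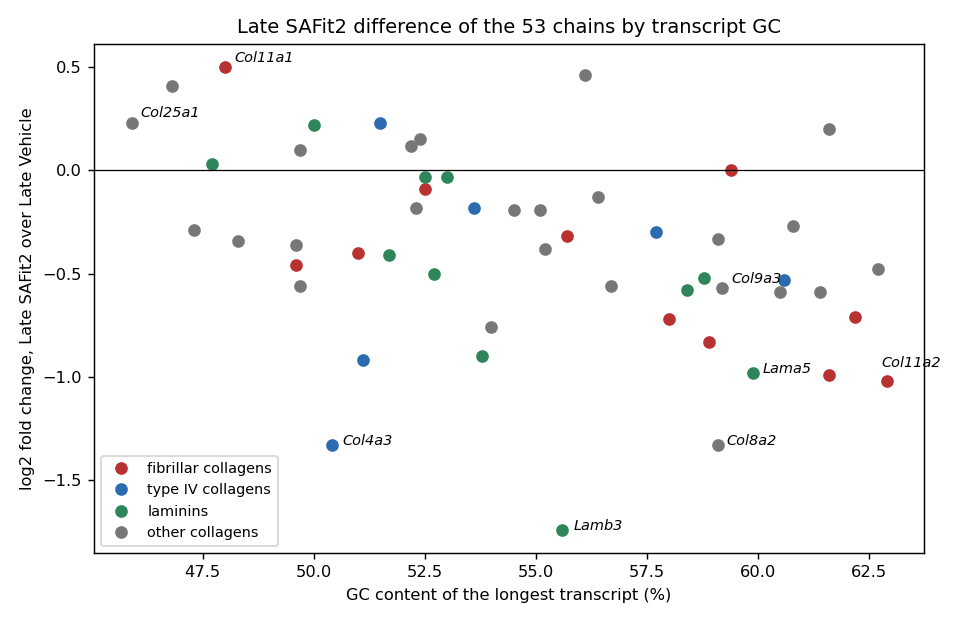
Log2 fold change of Late SAFit2 over Late Vehicle (y axis) against the GC content of the longest transcript (x axis) for the 53 genes, colored by class. The 9 genes of at least 60% GC have a median of -0.59, and those under 50% of -0.13.

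After early SAFit2, 0 members were called by limma and 0 had a nominal p under 0.05, against 0.0% called and 2.48% (416 genes) at a nominal p under 0.05 over all genes. The lowest unadjusted limma p among the members was that of Col9a1 (0.13), at -0.90 ± 0.58 (SE, exact permutation p = 0.13), with 1 to 17 reads in the Early SAFit2 mice. Col4a3 came next by limma (unadjusted p = 0.26), at -0.58 ± 0.51 (exact permutation p = 0.095). Col1a2 was at 6.14 ± 0.40 (SD, n = 5) and 6.13 ± 0.77 (SD, n = 6), and Lamc1 at 5.63 ± 0.11 and 5.48 ± 0.47. Col11a2 was at 4.12 ± 0.25 and 4.19 ± 0.47, a difference of -0.07 ± 0.30, and Col9a3 at 3.64 ± 0.22 and 3.65 ± 0.33. Of the 53 differences 33 were below 0 (62.3%, against 48.3% of all genes). Class medians were -0.27 (fibrillar), -0.07 (type IV), 0.07 (laminins) and -0.19 (other collagens), against 0.01 over all genes. Ependymal markers moved with early SAFit2, with 5 of 6 lower at a nominal p under 0.05, 0 called by limma and a median of -1.65. Fibroblast and meningeal markers were below 0 in 10 of 10 genes (median -0.52, 2 at a nominal p under 0.05, 0 called by limma). Those of Schwann cells and nerve roots were above 0 in 9 of 10 (median 0.17). The part of these cells was not tested.

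For the mean of the early and late effects, counted at a nominal p under 0.05 as in the methods, 7 members passed, all lower, where 13.2% of all genes passed and 7.18% passed as lower. They were Col8a2 (-0.90 ± 0.33, SE), Col4a3 (-0.95 ± 0.36), Lamb3, Col11a2, Col9a3, Col16a1 and Col9a2, and none passed an adjusted p of 0.05 by limma (lowest 0.33). The early and the late effect were compared directly as their difference. By limma 0 members and 0.0% of all genes were called, and 3 members had a nominal p under 0.05 (24.9% of all genes): Col11a2, with an early minus late effect of 0.95 ± 0.42 (SE, limma, adjusted p = 0.17), Lama5 with 1.04 ± 0.48 (adjusted p = 0.18) and Col9a3 with 0.55 ± 0.26 (adjusted p = 0.19).

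Col1a1 and Col3a1 varied more among Late SAFit2 mice (SD 1.99 and 1.83) than in the other groups (SD of at most 0.83 and 0.70). Without replicate 2 the SDs were 1.02 and 1.24 (n = 4). Col3a1 stood at 3.12, 1.62, 5.30, 5.36 and 5.92 log2 CPM in Late SAFit2 and between 3.90 and 4.71 in Late Vehicle mice. Of the Late SAFit2 mice 2 were below and 3 above all vehicle mice, and the difference of the means was -0.09 ± 0.49 (SE, limma, adjusted p = 0.92), or 0.57 without replicate 2. Col1a1 had 20 reads in replicate 2 and 165 to 525 in the other 4. In bulk tissue fewer cells of a type and less RNA per cell cannot be told apart.

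These levels followed the markers of Schwann cells and nerve roots. Within Late mice the mean of Col1a1, Col1a2 and Col3a1 went with the summed markers at r = 0.97 and rho = 0.98 (11 mice, deviations from group means; permutation within groups, adjusted p = 0.0028 and 0.0013), and r was 0.92 without the 2 mice farthest from the median. Within Early mice r was 0.79 and rho 0.75 (adjusted p = 0.021 and 0.038 by permutation), and 0.74 without the 2 farthest. With the 10 markers of fibroblasts and meninges r was 0.77 in Early and 0.93 in Late mice (rho 0.75 and 0.82, adjusted permutation p for r = 0.024 and 0.012, for rho 0.04 and 0.081, and r 0.81 and 0.74 without the 2 farthest). Those markers summed to 5.43 to 9.84 in Late SAFit2 and 7.10 to 8.04 in Late Vehicle mice. After late SAFit2 0 of 10 were called by limma (0 at a nominal p under 0.05). Of the 10 Schwann cell markers 0 were called, and 1 was higher at a nominal p under 0.05. Their median was -0.70, with 8 below and 2 above 0. They summed to 8.70, 6.13, 10.27, 10.70 and 11.64 in Late SAFit2 replicates 1 to 5, and to 9.41 to 10.51 in Late Vehicle mice. The basement membrane chains Col4a1, Col4a2, Lama4, Lamb1 and Lamc1, taken as a mean, followed the Schwann cell and nerve root markers too (r = 0.91 in Early and 0.87 in Late mice, rho 0.83 and 0.88, adjusted permutation p for r = 0.0028 and 0.0052, for rho 0.016 and 0.0012, and r 0.87 and 0.72 without the 2 farthest). With the endothelial markers the same mean had r of 0.36 in Early and -0.24 in Late mice (rho 0.38 and -0.45, adjusted permutation p = 0.4 and 0.61 for r, 0.36 and 0.26 for rho, and r 0.64 and -0.58 without the 2 farthest). Endothelial markers summed to 8.14 to 8.69 over all 22 mice. Mural cell markers summed to 7.08 to 7.86. The 18 relations were chosen with values in view, and the part of nerve root or meningeal tissue in the collagen levels was not tested.

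**Figure D5:**
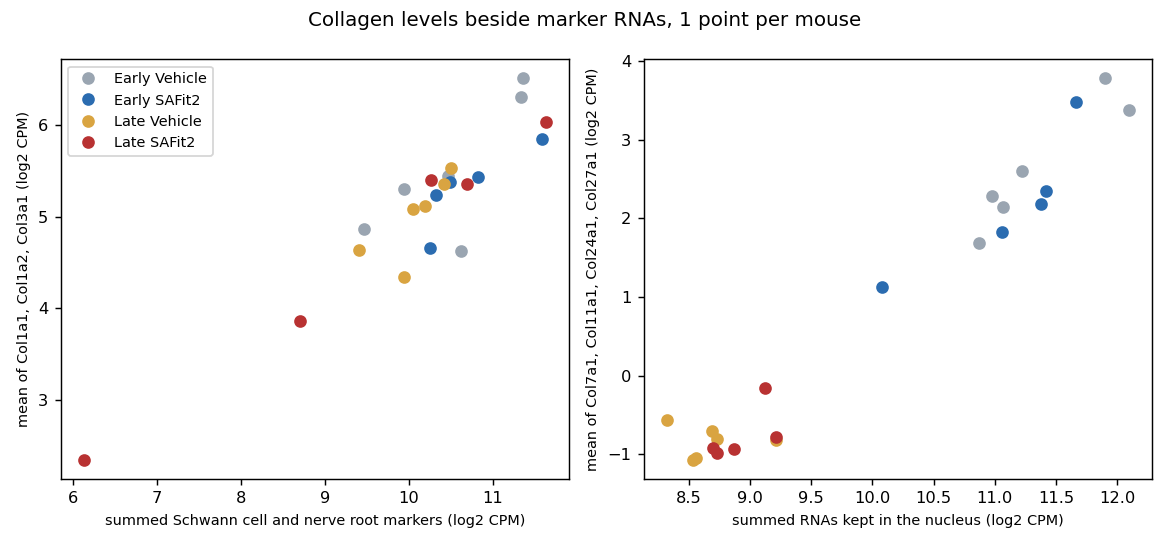
The left panel has the mean log2 CPM of Col1a1, Col1a2 and Col3a1 against the summed log2 CPM of 10 Schwann cell and nerve root markers, and the right panel the mean of Col7a1, Col11a1, Col24a1 and Col27a1 against the summed log2 CPM of 10 RNAs kept in the nucleus, 1 point per mouse. Late SAFit2 replicate 2 lies alone at 6.13 on the left, and on the right Early mice (10.08 and above) and Late mice (9.21 and below) form separate clusters.

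The 6 type IV genes lie head to head in 3 pairs, and the pairs were compared by the deviation of each mouse from its group. Col4a1 and Col4a2, whose 5′ ends overlap in the 22 bases printed earlier, went together with r = 0.94 in Early and 0.86 in Late mice (rho 0.95 and 0.80, adjusted permutation p = 0.0021 and 0.0036 for r, 0.0012 and 0.016 for rho, and r 0.93 and 0.83 without the 2 farthest). Col4a1 was at 5.66 ± 0.56 in Early Vehicle (SD, n = 6), 5.64 ± 0.38 in Early SAFit2 (n = 5), 5.19 ± 0.44 in Late Vehicle (n = 6) and 4.90 ± 0.50 log2 CPM in Late SAFit2 mice (n = 5), and Col4a2 at 5.17 ± 0.59, 5.26 ± 0.37, 4.82 ± 0.53 and 4.29 ± 0.38. Late SAFit2 mice were below Early SAFit2 mice, with differences of -0.74 ± 0.26 and -0.97 ± 0.27 (SE, limma, adjusted p = 0.046 and 0.014), and without Late SAFit2 replicate 2 Col4a1 was not called (-0.55 ± 0.26, limma adjusted p = 0.14). With the GC correction neither was called (-0.24 ± 0.21 and -0.35 ± 0.19, limma adjusted p = 0.48 and 0.21). Neither gene was called after late SAFit2 (-0.30 ± 0.25 and -0.53 ± 0.26, limma adjusted p = 0.41 and 0.15). Col4a5 and Col4a6 start 1309 bases apart on the X chromosome. Their r was 0.88 in Early mice and 0.46 in Late mice (rho 0.64 and 0.35, adjusted permutation p = 0.011 and 0.44 for r, 0.081 and 0.44 for rho), and without the 2 farthest 0.67 and 0.10. Col4a3 and Col4a4 start 72 bases apart on chromosome 1 and had 0 to 30 reads per library, and their r was 0.14 and 0.11 (rho 0.09 and -0.11, adjusted permutation p = 0.77 and 0.78 for r, 0.81 and 0.80 for rho, and r -0.29 and 0.41 without the 2 farthest), a range of reads in which counting error is large. The type I chains Col1a1 and Col1a2, which lie on separate chromosomes, had r of 0.98 and 0.89 (rho 0.96 and 0.86, adjusted permutation p = 0.0009 and 0.0016 for r, 0.0012 and 0.0025 for rho, and r 0.97 and 0.86 without the 2 farthest).

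Genes that make, bind or cut collagen and laminin were counted in the same fit after late SAFit2, where 12.1% of all genes were called and 6.72% called lower. These calls rest on that fit, since over all genes 1 of 16765 was called without Late SAFit2 replicate 2 and 0 of 16213 with the GC correction (limma, 5268 and 2527 at a nominal p under 0.05). Of 30 tested genes of collagen maturation 0 rose and 2 fell: Bmp1, which cuts the propeptide of fibrillar collagens (-1.01 ± 0.25, SE, limma adjusted p = 0.032), and P3h4, of the complex that modifies lysines of collagen chains (-0.49 ± 0.15, adjusted p = 0.04). Of 16 receptors 1 rose and 2 fell. Itgb1, the beta chain shared by collagen and laminin integrins, rose by 0.45 ± 0.12 (adjusted p = 0.033), and Itga7, a laminin-binding integrin alpha chain, was lower, with a difference of -0.76 ± 0.18 (adjusted p = 0.032). Of 16 other basement membrane proteins 0 rose and 3 fell, led by Fbln2 (-0.96 ± 0.24, adjusted p = 0.032) and Npnt (-0.78 ± 0.23, adjusted p = 0.038). Of 15 other fibrous matrix proteins 0 rose and 2 fell, Eln, elastin (-0.89 ± 0.29, adjusted p = 0.047) and Tnc (-0.89 ± 0.30, adjusted p = 0.05 after rounding). Of 17 matrix proteases and inhibitors 0 were called, with 7 at a nominal p under 0.05, and the lowest p were those of Mmp17 (-0.51 ± 0.18, adjusted p = 0.06) and Timp3 (0.34 ± 0.12, adjusted p = 0.06). List medians were -0.11, -0.30, -0.38, -0.30 and -0.11, against -0.05 over all genes. After early SAFit2 0 genes of these lists were called by limma, and 3 had a nominal p under 0.05.

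The genes most like the fibrillar collagens, by Pearson correlation with the mean of the 11 chains over the deviations of 22 mice from their group means, were Ddn (0.92), Sema3b, Fhl3, Capg, Cfap100 and Sptbn5 (0.89 each), Kif19a (0.88), Slc36a2 and Hspg2 (0.87 each) and Cavin1 (0.86). Hspg2 codes for perlecan of basement membranes and Cavin1 for a coat protein of caveolae. For the mean of the 17 type IV and laminin chains they included Itpr3 (0.92), Cd151 and Osbpl5 (0.90 each), Sptbn5 (0.89), Clca3a2 and Stat6 (0.87 each), and Plekha7, Hspg2 and Slc6a13 (0.86 each). Cd151 is a tetraspanin bound to laminin-binding integrins, and Slc6a13 is a transporter that is also in the list of meningeal markers. These are descriptions over libraries that share depth and tissue content.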

How the data were processed

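Libraries were stranded, paired-end mRNA libraries of lumbar spinal cord from 22 mice. The authors trimmed and aligned the reads (Trimmomatic and HISAT2 in the submitters' processing notes, versions not given in the sources used here) to mm10, counted them per gene with featureCounts, whose strand setting is not given, and scaled them with TMM. The deposited values are log2 CPM, with -3.154 for 0 reads. Whole reads were recovered from them for 100.0% of values (tolerance 0.02 reads).

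A gene was tested where 5 or more libraries reached a log2 CPM of -1, which left 16765 of 17306, and all 53 members passed. One model with a mean per group was fitted to all 22 libraries with limma 3.58.1 (R 4.3.3, variance trend), with Benjamini-Hochberg adjustment over all genes tested. Calls needed an adjusted p under 0.05 and a 1.2-fold change. Exact permutation tests and correlations used scipy 1.17.1. The script was tested on simulated data. GC content and length came from the longest GENCODE M21 transcript, and the correction used a loess span of 0.5. Mice are assumed separate, 1 library each.

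Members, gene lists and tests were chosen with earlier results of these data known. Named were the 2 most abundant members per class, called members (at most the 8 of lowest p per direction), the 2 of lowest p per comparison, the head-to-head type IV pairs, the 2 genes of lowest late p per related list and the 10 best correlated genes, of which 1 is not reported here. Other genes were named after their values were seen. Alternatives changed the filter, prior count, scaling, weights, samples, replicate block and GC correction.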

Additional observations from a re-analysis of the deposited data

Results flagged for a closer look

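A library stood far from the rest of its group, by Dixon's test at the 95% level, in 14 of 176 groups of values, 9 of them on collagen and laminin genes. Chance gives about 1 in 20. Late SAFit2 replicate 2, the library with the fewest nerve root markers, was low for Col16a1 (1.27 log2 CPM, nearest other 2.13) and Lamc1 (5.05, nearest 5.55) and high for Col9a3 (3.25, nearest 2.94). Late SAFit2 replicate 5 was high for Col11a1 (3.02, nearest 1.51). Early Vehicle replicate 1 was high for Col16a1 (4.78) and Col5a3 (4.81). Early Vehicle replicate 4 was low for Col4a5 (1.15) and Col4a6 (-1.57), the pair on the X chromosome. Late Vehicle replicate 6 was high for Col4a4 (0.78).

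Among the summed lists, Early SAFit2 replicate 3 was high for collagen and laminin receptors (9.53 log2 CPM). Early SAFit2 replicate 1 was low for matrix proteases and inhibitors (9.87) and high for neurons (12.89). Early SAFit2 replicate 5 was low for endothelium (8.14), and Late Vehicle replicate 5 was low for fibroblasts and meninges (7.10).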

How the results depend on the processing

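Of the 2 members called after late SAFit2, 0 remained called without a variance trend, with only the groups compared, with voom on the recovered reads or with the GC and length correction. The count was 1 with median centring or quantile normalization, 12 with library quality weights, and 0 to 8 when a library was left out (8 without Late Vehicle replicate 6, 0 without Late SAFit2 replicate 2). After early SAFit2 it was 0 throughout. For the mean effect, 7 became 19 with weights, 4 with quantile normalization, 2 with the GC correction and 4 to 10 when a library was left out. The early minus late effect gave 3 with weights and 0 to 1 when a library was left out. Between vehicle groups 8 became 3 at a log2 CPM of at least 0 in all libraries, 22 with weights, 18 with the GC correction and 5 to 12 when a library was left out. Only 28 of the 53 members pass that filter. Col6a1, Col7a1, Col24a1, Col26a1 and Col27a1 do not, so they were not tested under it. Between SAFit2 groups 21 became 11 under that filter, 13 with quantile normalization, 11 with the GC correction and 14 to 22 when a library was left out. Other causes of these changes were not tested. The late median of laminins became -0.27 under the filter, over the 8 that pass it, and -0.26 with quantile normalization. With the GC correction the late medians were -0.06 for laminins, 0.10 for type IV and 0.12 for other collagens.

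Replicate numbers did not pair the mice: same-numbered deviations correlated at -0.236 to 0.317 over 10 pairs, 2 of them above 0.1. With the replicate block 4, 0, 8, 0, 7 and 20 members were called (late, early, mean, early minus late, vehicle, SAFit2 groups). With the block and the GC correction the counts were 0 (late), 3 (mean), 14 (vehicle) and 10 (SAFit2 groups), and the late medians -0.07 (laminins), 0.10 (type IV) and 0.06 (other).

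Values that changed sign were uncalled. With the GC correction, alone and with the block, the late differences became 0.10 and 0.11 (Col16a1), 0.07 and 0.02 (Col1a2), 0.16 and 0.17 (Col23a1), 0.02 and 0.04 (Col26a1), 0.13 and 0.08 (Col3a1), 0.19 and 0.15 (Col4a1), 0.11 and 0.05 (Col4a2), 0.09 and 0.16 (Col4a6), 0.03 and 0.00 (Lamb2) and 0.22 and 0.18 (Lamc1), and the early ones -0.08 and -0.13 (Col1a2), -0.05 and -0.11 (Col4a2), -0.04 and -0.08 (Col5a3), -0.10 and -0.09 (Lama5) and -0.05 and -0.07 (Lamb2). With the block alone they were -0.08 (Col1a2), -0.03 (Col4a2), -0.00 (Col5a3) and -0.01 (Lamb2) early, and -0.14 (Col27a1) and -0.17 (Col9a1) late. With weights the early values were 0.10 (Col11a1), -0.21 (Col1a2), -0.08 (Col25a1), -0.04 (Col4a2), 0.10 (Col4a4), 0.11 (Col9a3), -0.11 (Lama5), -0.11 (Lamb2) and -0.08 (Lamc1), and the late value of Col27a1 -0.33. Quantile normalization gave -0.04 (Col1a2, early), 0.02 (Col24a1, late) and 0.03 (Col4a6, late), voom -0.00 (Col1a2, early), -0.05 (Col27a1, late) and -0.03 (Col9a1, late), and median centring 0.03 (Lamc1, late).

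With a library left out, early differences ranged from -0.17 to 0.10 (Col11a2), -0.18 to 0.21 (Col1a2), -0.11 to 0.07 (Col23a1), -0.04 to 0.14 (Col25a1), -0.16 to 0.16 (Col4a1), -0.04 to 0.29 (Col4a2), -0.40 to 0.03 (Col4a5), -0.11 to 0.44 (Col5a3), -0.45 to 0.09 (Col6a1), -0.08 to 0.11 (Col9a3), -0.17 to 0.29 (Lama5) and -0.11 to 0.25 (Lamb2). Late ones ranged from -0.29 to 0.25 (Col27a1), -0.50 to 0.57 (Col3a1), -0.15 to 0.55 (Col4a5), -0.60 to 0.22 (Col4a6), -0.03 to 0.34 (Col7a1), -0.17 to 0.50 (Col9a1) and -0.14 to 0.09 (Lamc1). Neither planned edgeR fit was run, and limma was fitted to the deposited log2 CPM and voom to the recovered reads. Depth limits Col4a3, Col4a4, Col7a1, Col9a1, Col24a1 and Lamb3, which had few reads in Late mice.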
